A study of Mus musculus with 5 samples.

Results

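A set of 9 genes of extracellular proteolysis was followed here by symbol among the 23951 genes of the deposited table: the plasminogen activator genes Plau and Plat, the receptor gene Plaur, the inhibitor gene Serpine2, the matrix metalloproteinase genes Mmp2 and Mmp14, and the metalloproteinase inhibitor genes Timp1, Timp2 and Timp3. All 9 were found. They were measured by RNA-seq of total RNA from GFP-positive cells that had been sorted by flow cytometry out of dissociated mouse pancreatic islets. The p16 group holds 3 samples from Ins-rtTA/tet-GFP/tet-p16ink4a mice, in which the sorted cells express GFP and the cell cycle inhibitor p16INK4a. The GFP group holds 2 samples from control Ins-rtTA/tet-GFP mice, in which they express GFP alone. Both groups carry the Ins-rtTA driver and the tet-GFP reporter and received tetracycline for 10 days, so by the labels the tet-p16ink4a transgene is what sets them apart. By its name the driver is under insulin promoter control, and the gate was on GFP. The sources used here give neither strain nor age, and do not say whether each sample is 1 mouse or a pool.

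The table gives 1 FPKM value per group and gene (fragments scaled by transcript length and by library size, a level that can be compared between genes). It holds no values per sample, so no SD can be given, the overlap of the groups cannot be seen, and the depth of each library is unknown. A gene was called where its q-value, the p-value adjusted over all tested genes, was below 0.05 in the authors' deposited table. These p- and q-values come from the authors' test of the difference between the groups. They do not give the spread between the samples, which may be technical in part. Cdkn2a, the gene of p16INK4a, was listed at 0.657 FPKM for the GFP group against 34.6 FPKM for the p16 group, the direction that the labels give.

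Plasminogen is a circulating zymogen that is cut to the active protease plasmin by the activators tPA (Plat) and uPA (Plau). The uPA receptor (Plaur) holds uPA at the cell surface, and serpins such as protease nexin-1 (Serpine2) trap the activators in inactive complexes. Matrix metalloproteinases are zinc enzymes that cut collagens and other matrix proteins. MMP14 sits in the membrane and, together with TIMP-2, activates the secreted gelatinase MMP2, while the TIMP proteins inhibit the active enzymes. Several of these genes belong to the secretory programme described for senescent cells, a state in which p16INK4a is often expressed.

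Promoter sequence was at hand for 6 of the 9 members, in RefSeq's table on the GRCm38.p6 build, which is not the mm9 build of the expression table. It was not found for Plau, Plat and Mmp2. Plaur is shown because it is the called member with an entry, and Mmp14 because it came next in the strength of its test. The 250 bases before the start are at chr7:24462233-24462482 for Plaur and chr14:54431348-54431597 for Mmp14, both on the plus strand. In the Plaur sequence capitals mark the AP-1 motif TGAGTCA, read here from its other strand. In the Mmp14 sequence they mark 2 adjacent copies of the GC box GGGCGG. The Timp1 stretch, at chrX:20870182-20870208 on the plus strand, lies just past the start and is shown for its AP-1 variant TGAGTAA, in capitals.
Plaur: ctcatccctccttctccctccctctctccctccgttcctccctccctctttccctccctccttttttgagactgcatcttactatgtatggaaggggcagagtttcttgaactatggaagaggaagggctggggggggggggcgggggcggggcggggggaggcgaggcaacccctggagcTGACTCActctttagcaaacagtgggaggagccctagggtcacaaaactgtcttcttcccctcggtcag
Mmp14: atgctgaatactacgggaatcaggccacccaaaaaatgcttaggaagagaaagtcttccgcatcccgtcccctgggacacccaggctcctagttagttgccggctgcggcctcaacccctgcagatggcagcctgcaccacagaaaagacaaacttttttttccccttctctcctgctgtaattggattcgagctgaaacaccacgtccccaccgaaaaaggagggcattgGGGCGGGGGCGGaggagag
Timp1: ggtgggtggaTGAGTAAtgcgtccagg
Across the 300-base windows of the 6 members, searched on both strands, TGAGTCA was found in Plaur alone, starting 69 bases before the start, and 5.20% of all 32851 promoters in the table hold it. TGAGTAA was found in Timp1 alone, starting at base 27 of the transcript, against 2.68% of all promoters. GGGCGG was found in all 6 members, against 35.7% of all promoters. Their windows were 55.0% (Timp1) to 77.7% (Serpine2) GC, against a median of 52.7% over all promoters. The CRE motif TGACGTCA, the E2F motif TTTNGCGC and the TATA box TATAAA were found in none of the 6, against 1.79%, 1.38% and 13.6% of all promoters. These motifs do not overlap one another in the members' windows except for the copies of GGGCGG. A match describes letters and is not a binding site.

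All 9 members had a higher FPKM value with p16 than with GFP, but 2 of them passed the test. Plaur and Plat rose, and no member fell. Of the 9 the authors tested 7. At the same threshold 4.32% of the 13264 tested genes were called higher and 1.10% lower, and 5.42% were called in all. Within the members' own range of mean level, 0.251 to 6.63 FPKM, 5.57% of 5331 tested genes were called higher and 0.732% lower. A higher value with p16, without regard to any test, was found for 48.4% of tested genes and for 55.3% of the 5736 genes in that range of level. The median log2 ratio of FPKM, p16 over GFP, was 1.27 over the 9 members, -0.02 over all tested genes and 0.08 over genes in the members' range. With a pseudocount of 1 FPKM these medians were 0.40 for the members and -0.01 for tested genes. Timp3 had the lower value with p16 after quantile normalization, so that the direction was shared by 8 of 9 there.

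The members were scarce transcripts. With GFP, 7 of the 9 lay below 1 FPKM, and with p16, 5 did. Timp2 had the highest level in both groups and Plat came second in both. Below them the order changed. With GFP it ran Serpine2, Timp3, Plau, Plaur, Timp1, Mmp14 and Mmp2, and with p16 it ran Plaur, Serpine2, Mmp14, Mmp2, Plau, Timp1 and Timp3. Without a spread over samples, neighbours in these orders cannot be said to differ.

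**Figure D1:**
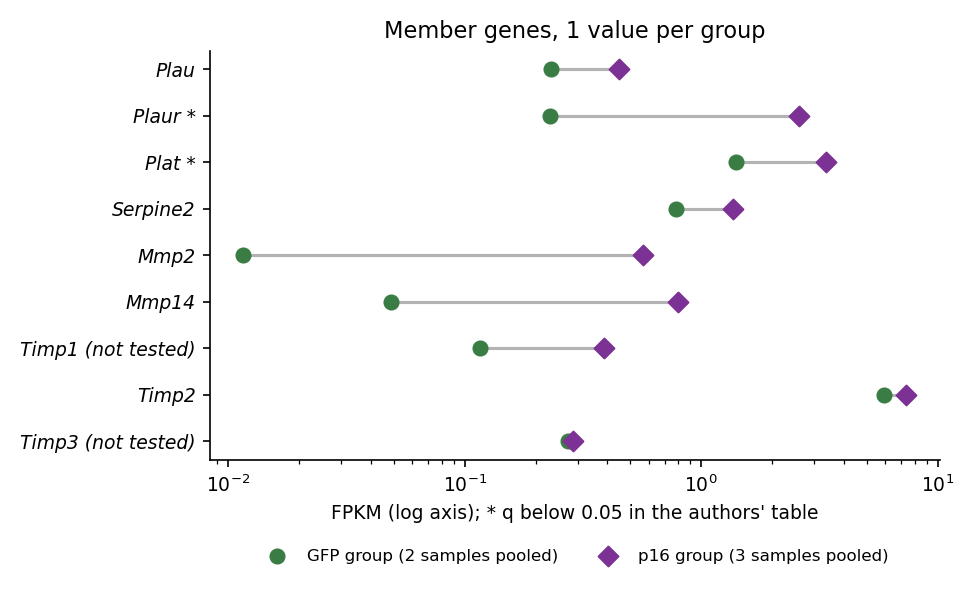
FPKM of each member gene (log axis), 1 pooled value for the GFP group (circles, 2 samples) and 1 for the p16 group (diamonds, 3 samples), with no error bars because none can be had. The p16 value lies to the right for all 9 genes, by most for Mmp2 (0.0116 to 0.567 FPKM) and by least for Timp3 (0.273 to 0.288 FPKM), and the asterisks mark the called genes Plaur and Plat.

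Plaur, the receptor that gathers uPA on the cell surface, had 0.230 FPKM in the control cells and 2.59 FPKM in the p16 cells. It rose 11.3-fold, a log2 ratio of 3.50 (q = 0.0174 in the authors' deposited table, p = 0.0006). The gene lies on chromosome 7 from 25247519 to 25260892 in mm9 and shares its locus with no other gene of the table. Among the 16931 genes above 0 in both groups its level went from percentile 21.2 to percentile 39.9. It was the third most abundant member with p16 and the sixth with GFP. The size of the rise rests on the low GFP value: the log2 ratio was 1.55 with a pseudocount of 1 FPKM and 0.54 with one of 5 FPKM.

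Plat, which encodes tPA, had 1.40 FPKM in the control cells and 3.37 FPKM in the p16 cells. It rose 2.41-fold, a log2 ratio of 1.27 (q = 0.0381 in the authors' deposited table, p = 0.00185). Its locus is on chromosome 8, 23868216 to 23893320 in mm9. In both groups it was the most abundant of the protease genes among the members. With a pseudocount of 5 FPKM its log2 ratio was 0.39.

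Plau, the gene of uPA, had 0.232 FPKM in the control cells against 0.450 FPKM in the p16 cells, on chromosome 14 from 21655884 to 21662610. That 1.94-fold difference missed the threshold in the authors' deposited table, with a q of 0.398. Transcripts of the receptor and of its ligand stood at the same level with GFP, with a Plaur to Plau ratio of 0.991, and at a ratio of 5.77 with p16. The ratio of Plat to Plau was 6.03 with GFP and 7.504 with p16. These ratios are of FPKM values within a group and have no test.

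Serpine2, which encodes protease nexin-1, an inhibitor of thrombin and of both activators, had 0.785 FPKM in the control cells and 1.36 FPKM in the p16 cells. The authors' deposited table gives this 1.73-fold difference a q of 0.377, which is no call. It lies on chromosome 1 from 79790896 to 79855240. The summed level of Plau and Plat was 2.07 times that of Serpine2 with GFP and 2.81 times with p16.

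The rest of the plasminogen system had values on both sides of equality, 6 higher and 5 lower among the tested genes. Of 20 listed genes 18 were in the table and 11 tested, of which 1 was called higher and none lower by the authors' Cuffdiff test, with 3 higher and 1 lower at an unadjusted p below 0.05. The median log2 ratio of the 11 was 0.11. F3, the gene of tissue factor, the starter of blood clotting, rose from 20.8 to 49.2 FPKM, with q = 0.00245 in the authors' deposited table. The most abundant tested members of the list were S100a10, a plasminogen receptor subunit, at 158.6 and 142.5 FPKM, and Serpini1, the inhibitor neuroserpin, at 35.4 and 24.5 FPKM, and neither passed. A further 2 were picked after their values were seen. Plg, the gene of plasminogen itself, is listed at 0 with GFP and at 0.0112 FPKM with p16. Anxa2, whose product pairs with S100A10 to bind plasminogen and tPA, was listed at 0.0751 and 3.26 FPKM, a difference with a q of 0.584 in the authors' deposited table and hence no call.

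Both metalloproteinase members were near 0 FPKM in the control cells. Mmp14, the membrane-bound activator of MMP2, had 0.0488 FPKM in the control cells and 0.795 FPKM in the p16 cells. That 16.3-fold difference missed the threshold, with q = 0.0786 in the authors' deposited table, although its unadjusted p was 0.00535. Adding a pseudocount of 1 FPKM brought its log2 ratio from 4.03 to 0.78. Mmp2, gelatinase A, had 0.0116 FPKM in the control cells and 0.567 FPKM in the p16 cells, or 49.0-fold apart. It had the largest ratio among the members yet was not called, with q = 0.525 and p = 0.176 in the authors' deposited table. Pseudocounts of 1 and 5 FPKM brought its log2 ratio from 5.61 to 0.63 and 0.15. Mmp14 lies on chromosome 14 from 55050441 to 55060095 and Mmp2 on chromosome 8 from 95351227 to 95377319.

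**Figure D2:**
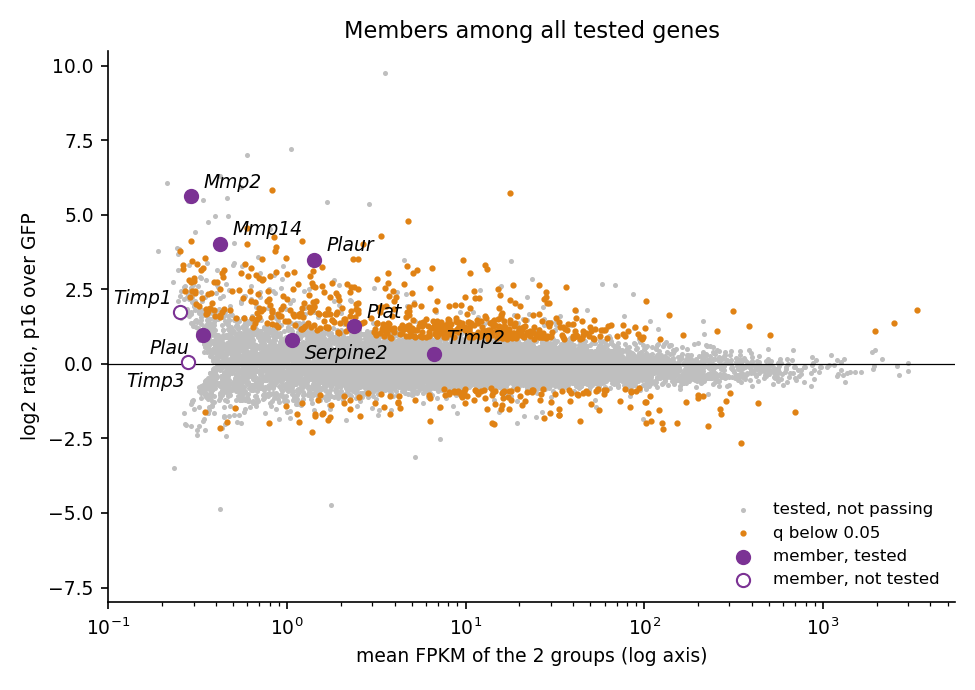
Log2 ratio of FPKM (p16 over GFP) against the mean FPKM of both groups (log axis) for tested genes above 0 in both, with called genes in orange and the members as large circles, open where the authors did not test them. Mmp2 and Mmp14 sit at the low-level, high-ratio edge at 5.61 and 4.03 without being called, while Plaur and Plat at 3.50 and 1.27 are called at higher mean levels.

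Few other matrix metalloproteinases reached a level at which the authors tested them. Of 21 further Mmp genes, 7 were listed at 0 in both groups, 19 were below 1 FPKM in both, and 2 were tested. None of the 2 was called by the authors' Cuffdiff test, with 1 higher and none lower at an unadjusted p below 0.05. Mmp24, a membrane-type enzyme, was at 3.15 and 5.01 FPKM, and shares its locus with another gene. Mmp15, a related membrane-type enzyme, was listed at 0.550 and 1.12 FPKM, with a q of 0.169 in the authors' deposited table. The inducible gelatinase Mmp9 and the stromelysin Mmp3, named after their values were seen, were not tested, at 0.0229 and 0.103 FPKM for Mmp9 and at 0 and 0.00795 FPKM for Mmp3. Of 26 ADAM and ADAMTS genes, which encode sheddases and matrix proteases, 9 were tested and none called by Cuffdiff, also none at an unadjusted p below 0.05. Adam9 and Adam10, the most abundant of them, had 29.7 and 16.8 FPKM in the control cells against 37.1 and 15.6 FPKM in the p16 cells.

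Timp2, the inhibitor that also takes part in the activation of MMP2, was by far the most abundant member, at 5.90 FPKM in the control cells and 7.37 FPKM in the p16 cells. This 1.25-fold difference was not a call, with q = 0.636 in the authors' deposited table. Its locus, on chromosome 11 from 118162375 to 118216725, also holds BC100451, listed at 0.0158 and 0.0408 FPKM. Timp1, an inhibitor induced by cytokines in many cells, was not tested and had 0.116 FPKM in the control cells and 0.387 FPKM in the p16 cells. Timp3, which is bound to the matrix, was not tested either and stood at 0.273 and 0.288 FPKM. Timp1 and Timp3 sit inside synapsin genes: the table gives Timp1 the locus of Syn1 and Araf on chromosome X, 20425669 to 20498044, and Timp3 that of Syn3 on chromosome 10, 85511491 to 85961641. Syn1 was at 17.1 and 27.5 FPKM, Araf at 104.7 and 113.3 FPKM, and Syn3 at 0.634 and 0.958 FPKM, and none of the 3 passed. The sources used here do not give the strand handling, so the split of reads between these neighbours is uncertain.

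Set against each other as ratios of FPKM, the 3 Timp members exceeded the 2 metalloproteinase members in both groups, with the smaller ratio in the p16 group. The 3 Timp genes summed to 6.29 FPKM in the control cells and 8.04 FPKM in the p16 cells, of which Timp2 made up 93.8% and 91.6%. Mmp2 and Mmp14 summed to 0.0603 FPKM in the control cells and 1.36 FPKM in the p16 cells. The ratio of these sums was 104.2 with GFP and 5.90 with p16. It moved with the 2 protease values, neither of which passed the test, and has no test of its own. Mmp14 was 4.21 times Mmp2 with GFP and 1.40 times Mmp2 with p16. The 21 other Mmp genes are outside these sums, so the ratios do not describe metalloproteinase transcripts as a whole. Those genes summed to 4.18 FPKM with GFP and 6.99 FPKM with p16, of which Mmp24 gave 3.15 and 5.01 FPKM.

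Among 17 other regulators of metalloproteinases 12 were tested, with none higher and 1 lower by the authors' Cuffdiff test and 3 higher and 1 lower at an unadjusted p below 0.05. Tfpi2, a secreted Kunitz-type inhibitor of plasmin and metalloproteinases, fell from 2.17 to 0.685 FPKM, with q = 0.0284 in the authors' deposited table. Bsg, which encodes an inducer of metalloproteinases in neighbouring cells, was at 306.7 and 348.3 FPKM, and the proteoglycan gene Spock2 at 129.2 and 138.6 FPKM, and neither passed. Furin, the convertase that activates MMP14, and the membrane inhibitor gene Reck were picked after their values were seen. Furin was at 13.6 and 22.4 FPKM (q = 0.107 in the authors' deposited table) and Reck at 1.82 and 1.35 FPKM, and neither passed.

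Among trypsin-like proteases of the cell surface and serpin or Kunitz-type inhibitors, several genes rose and 1 fell. Of 20 genes 16 were tested, and the authors' deposited table calls 4 higher and 1 lower, with a median log2 ratio of 0.73 over the 16. St14, the gene of matriptase, which can activate pro-uPA and pro-HGF, rose from 8.34 to 18.4 FPKM. Spint1, the gene of its cognate inhibitor HAI-1, rose from 68.8 to 128.9 FPKM. Prss23, a secreted serine protease gene, rose from 4.73 to 12.9 FPKM, and Serpinh1, the collagen chaperone HSP47, from 1.37 to 3.24 FPKM. The gene that fell was Serpinb9, a granzyme B inhibitor gene, from 11.2 to 5.999 FPKM, named after its values were seen. Of 17 growth factor and receptor genes that these proteases act on, 9 were tested, and the authors' deposited table calls 1 higher and none lower, with 1 higher and 2 lower at an unadjusted p below 0.05. Met, the receptor of HGF, rose from 6.15 to 13.8 FPKM. The median log2 ratio of the 9 was -0.27, with Vegfa at 153.2 and 123.4 FPKM and F2rl1, a receptor cut by trypsin-like proteases, at 16.04 and 18.5 FPKM.

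**Figure D3:**
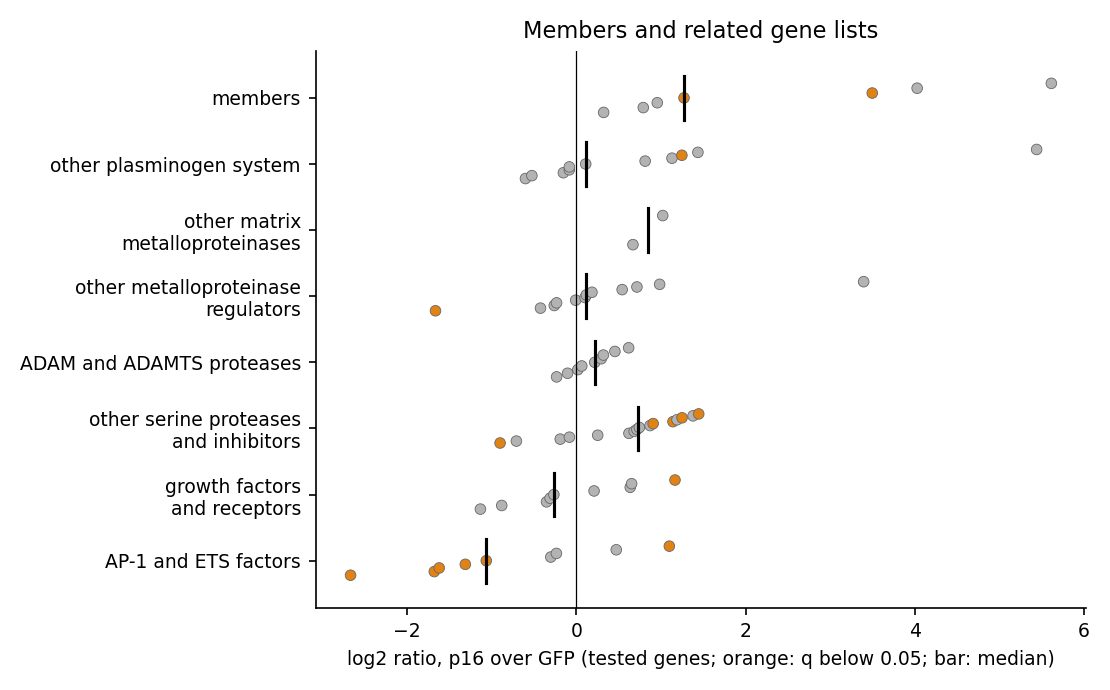
Log2 ratio of FPKM (p16 over GFP) of each tested gene in the members and in 7 related lists, with called genes in orange and the median of each list as a bar. The members' 7 tested genes all lie above 0, while the other plasminogen genes lie on both sides with a median of 0.11 and the AP-1 and ETS factors have a median of -1.07.

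Several genes of AP-1 factors, the FOS and JUN proteins that bind the motif shown above for Plaur, were among those that fell. Of 10 AP-1 and ETS genes 9 were tested, and the authors' deposited table calls 1 higher and 5 lower. Fos fell from 599.9 to 94.3 FPKM, Jun from 412.1 to 128.6 FPKM, Fosb from 1052 to 341.7 FPKM and Atf3 from 616.2 to 248.0 FPKM. Ets2, named after its values were seen, rose from 51.4 to 110.1 FPKM. The 3 tested genes that were not called are also AP-1 genes, named after their values were seen. Jund had the higher value with p16, at 322.1 and 446.5 FPKM. Fosl2 was at 27.9 and 23.7 FPKM and Fosl1 at 3.99 and 3.24 FPKM. Plaur rose in the same comparison. Whether these factors bear on Plaur was not tested.

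Markers of other islet cell types were measured in the same sorted cells, since several members are transcripts of stroma, vessels or macrophages as well. In bulk RNA, more cells of a type and more RNA per cell cannot be told apart. Of 12 stellate and fibroblast markers 9 had a higher value with p16 and 2 a lower one, and their summed level was 0.716 FPKM with GFP and 5.12 FPKM with p16. Both tested markers of that list rose: Col1a2, a collagen I chain, from 0.0837 to 1.60 FPKM and the proteoglycan gene Dcn from 0.133 to 2.29 FPKM (q = 0.00245 and 0.00752 in the authors' deposited table). Pdgfra, a receptor gene of fibroblasts, was at 0.00528 and 0.297 FPKM without a test. Des is listed at 0 in both groups, Acta2 was at 0.0728 and 0.0149 FPKM and Lum at 0.045 and 0.00907 FPKM. With p16 most of the summed level came from Dcn and Col1a2. Col3a1, a collagen III chain, was nearly level at 0.169 and 0.186 FPKM. The sum is higher in the same group as Mmp2, Mmp14 and Timp1, and the part of these markers in those values was not tested.

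Endothelial markers, relevant because vessels make tPA, had a higher value with p16 in 8 of 11, and the sum was 3.16 FPKM with GFP and 3.75 FPKM with p16. Esam made up most of it, at 2.49 and 3.04 FPKM, while Cdh5 was at 0.0118 and 0.0150 FPKM and Kdr at 0.0964 and 0.0151 FPKM. Macrophage and leukocyte markers, relevant to Plaur, had a higher value in 6 of 14 and a lower one in 8, with sums of 27.6 and 38.7 FPKM, of which C1qa gave 25.9 and 35.1 FPKM. Cd68, a lysosomal protein gene, rose from 0.229 to 1.95 FPKM, with q = 0.0498 in the authors' deposited table. The leukocyte antigen gene Ptprc was at 0.00329 and 0.0269 FPKM, and Emr1, Fcgr3 and Tyrobp are listed at 0 with p16 and at no more than 0.332 FPKM with GFP. The part of these cell types in the values of Plat and Plaur was not tested. The sorted cells carried beta cell transcripts in both groups. Of 7 such markers with an estimate, all tested, 3 had a higher and 4 a lower value with p16, and their summed level was 4742 and 3605 FPKM. Slc2a2, the glucose transporter gene and the 1 marker called, was lower with p16, at 401.7 and 205.2 FPKM, with q = 0.0242 in the authors' deposited table. G6pc2, the most abundant, was at 3012 and 2327 FPKM, and the transcription factor gene Pdx1 at 67.6 and 119.6 FPKM, and neither passed. Ins1, Ins2 and Iapp have no estimate, being listed at 0 with a status for too many fragments. Delta, alpha and PP cell hormones were present too, with 4 of 8 tested markers higher in the authors' deposited table, and duct markers had 2 of 5 higher and 1 lower. No acinar marker of 6 and no Schwann cell marker of 2 tested was called by Cuffdiff, none also at an unadjusted p below 0.05.

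**Figure D4:**
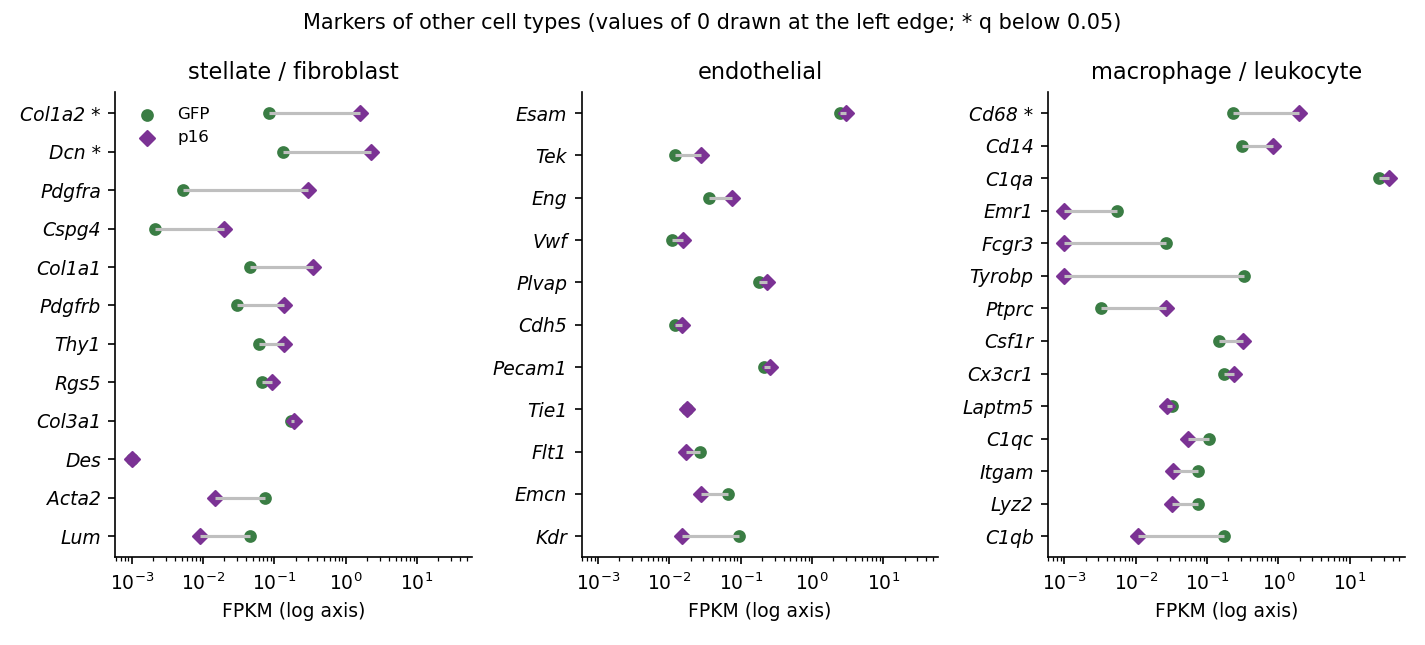
FPKM (log axis) of stellate and fibroblast, endothelial, and macrophage and leukocyte markers in the GFP group (circles) and the p16 group (diamonds), with values of 0 drawn at the left edge and called genes marked by an asterisk. Col1a2, Dcn and Cd68 are marked, Pdgfra differs as widely without a test (0.00528 and 0.297 FPKM), and Cdh5, Tie1 and Laptm5 have nearly equal values in both groups.

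The GC content of transcripts moved with the ratios over the whole table. Tested genes were ranked by GC content and split evenly over 10 bins. In bin 1, with the lowest GC content, the median log2 ratio was -0.34 and 10 of 1314 genes were called higher. In bin 10, with the highest, the median was 0.38 and 114 genes were called higher. The members lay between bin 3 (Plat and Serpine2, at 45.8% and 45.7% GC) and bin 8 (Mmp2 at 55.3%). Plat was in a bin with a median log2 ratio of -0.24, where 2.28% of genes were called higher. Plaur, at 53.0% GC, was in bin 7, with a median of 0.09 and 4.64% called higher. Centred on the median of its own bin, the log2 ratio was 3.41 for Plaur and 1.51 for Plat, and all 9 members stayed above 0.

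**Figure D5:**
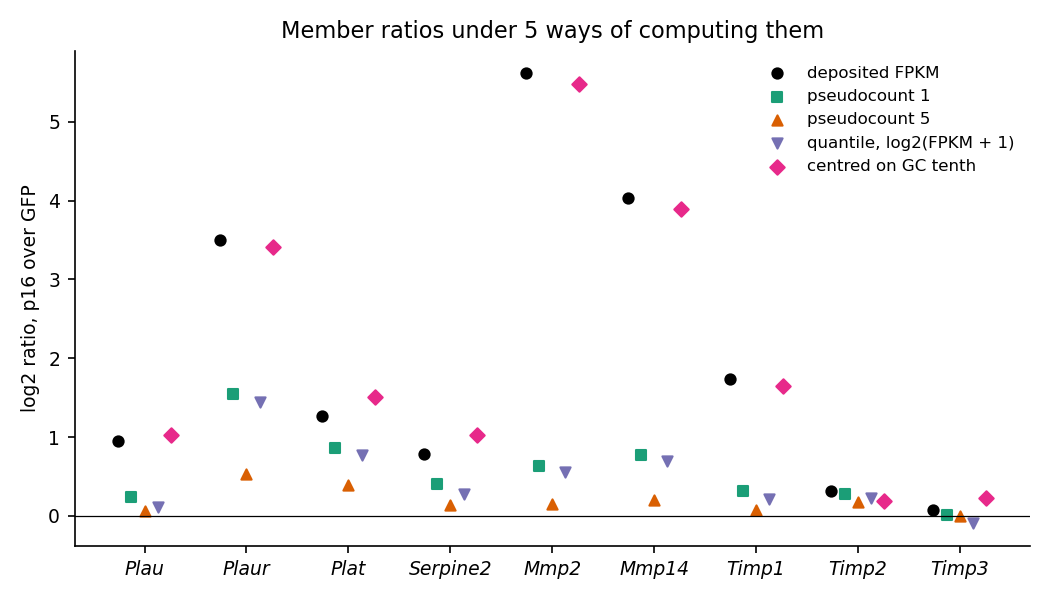
Log2 ratio (p16 over GFP) of each member computed in 5 ways: from deposited FPKM, with a pseudocount of 1 or 5 FPKM, after quantile normalization on log2(FPKM + 1), and centred on the median of genes of like GC content. Mmp2, Mmp14 and Plaur drop from 5.61, 4.03 and 3.50 to 0.63, 0.78 and 1.55 with a pseudocount of 1, Plaur is then the highest, and Timp3 falls below 0 after quantile normalization.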

How the data were processed

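Per the submitters' processing notes, the tools were TopHat2, Cuffnorm and Cuffdiff and the build was mm9. The sources used here give no versions, annotation or strand setting. The authors deposited 1 table in Cuffdiff's layout. Its FPKM values, which the authors scaled by transcript length and library size, come as 1 per gene in each group and are not counts. It also holds the authors' p-value and q-value per gene. Adjusting the p-values of the 13264 tested genes by Benjamini-Hochberg gave the q-values back within 5.23e-07, and the smallest p was 5e-05. Another 10679 genes were not tested, 6 had too many fragments and 2 had failed.

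The 9 members, the related lists and the rules were chosen with earlier results of these data known, so counts over them are descriptions. Group values allow no fit over samples, so the authors' calls at a q below 0.05 were used, for the members and for the other genes named. Ratios were computed from FPKM without a pseudocount. Named genes were the members and, per related list, up to 4 called genes of largest change in log2(FPKM + 1), or, where fewer than 2 were called, the most abundant tested 2. The values of 1 gene on these lists are not reported here. Starts were taken to count from 0, so 1 was added. Of 1036 microRNA genes matched to RefSeq, 295 had a length within 1 base, and 293 of those fit a count from 0. GC content came from the longest transcript in GENCODE release M21 (99.1% of tested genes matched), used for composition alone since its build differs. Alternatives covered pseudocounts, scaling, GC content, thresholds and filters. The software was Python 3.11.15 with pandas 2.3.3, numpy 2.4.6, matplotlib 3.10.9 and scipy 1.17.1, and the adjustment and normalization were tested on simulated data.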

Additional observations from a re-analysis of the deposited data

How the results depend on the processing

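No paired analysis was possible because the table holds no values per sample, and for the same reason no sample could be left out in turn. Of the members, 2 were called higher at a q below 0.05, 0 at a q below 0.01, 3 at an unadjusted p below 0.05 (Mmp14 joined), 2 when p was adjusted again over genes with a mean of at least 1 FPKM and 0 with at least 5 FPKM, where Timp2 alone was left to test. No member was called lower under any of these. Over all genes, 311 were higher and 58 lower at a q below 0.01, 1354 and 930 at an unadjusted p below 0.05, and 298 higher with a mean of at least 5 FPKM. Over the 7 related lists, 7 higher and 7 lower genes became 18 and 11 at an unadjusted p below 0.05, and 3 lower at a q below 0.01. The log2 ratio of Timp3 turned from 0.078 to -0.091 with quantile normalization on log2(FPKM + 1), which adds a pseudocount as well. A pseudocount of 1 moved the ratio of 5 members by over 1.5-fold and one of 5 that of 7, as the added value alone shrinks ratios of low levels. Centring moved none that far. Depth is unknown, so how finely levels under 1 FPKM can be told apart is unknown too.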

Other observations

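A large ratio over a near-zero GFP value that was not called, as for Mmp2 and Mmp14, was found for other genes as well. Over all tested genes with a GFP value above 0 and below 0.1 FPKM, 23 had a p16 value at least 16 times as high. Of these 23, 5 were called in the authors' deposited table and 18 were not, Mmp2 and Mmp14 among the 18. The filter itself fixed the direction, and the reverse case, near-zero with p16, was not counted. The genes named here were chosen after their values were seen. Col1a2, a collagen I chain, Nid1, which encodes the basement membrane protein nidogen, and Itgb6, an integrin chain, were among those called, with Nid1 at 0.0282 and 1.61 FPKM and Itgb6 at 0.0488 and 1.15 FPKM. The annexin genes Anxa1 and Anxa2 were among those that did not pass, Anxa1 at 0.0143 and 2.09 FPKM. So were Col6a1 at 0.0292 and 0.907 FPKM, the collagen crosslinking gene Loxl1 at 0.0258 and 0.698 FPKM, and Lgals3, which encodes galectin-3, at 0.0673 and 1.55 FPKM. The lowest and highest of these ratios that belong to members are 16.3-fold for Mmp14 and 49.0-fold for Mmp2. How far 1 sample of the p16 group carries such a value cannot be read from group values.

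The complement genes C1qa, C1qb and C1qc, whose products form 1 complex, were listed far apart: C1qa at 25.9 and 35.1 FPKM, C1qb at 0.174 and 0.0109 FPKM and C1qc at 0.105 and 0.0549 FPKM, with GFP and p16 in that order.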
